A study of Mus musculus with 16 samples.

Results

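The 9 genes described here encode the machinery that stores, releases and recaptures calcium in heart muscle cells. They are Atp2a2, Pln, Ryr2, Casq2, Hrc, Trdn, Jph2, Slc8a1 and Camk2d, chosen by name for their known roles out of 13842 genes in the deposited expression table. All 9 were in the table and all 9 passed the filter on low counts, which left 13504 genes for testing. Polyadenylated RNA from the hearts of 16 adult female mice, 3 months old, was sequenced, with 1 library per mouse. The mice were of 2 inbred strains, DBA/2J and C57Bl6/N (DBA and C57 below), and 4 mice of each strain had permanent ligation of a coronary artery and were killed 2 weeks later. The other 4 mice of each strain were untreated controls and not sham-operated, so ligation cannot be told apart from surgery as such. The sample labels give the tissue as septum and left ventricle, whereas the study's description has septum with right ventricle, so the exact region is uncertain. The sample titles call the ligated tissue remote. They also name the C57 controls C57Bl-6NCR and the ligated C57 mice C57Bl-6N, although the strain label is C57Bl6N for both, so a difference in C57 substrain or supplier, if there was one, cannot be told apart from ligation.

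In each heartbeat, calcium entering through L-type channels opens ryanodine receptors on the sarcoplasmic reticulum, and the calcium released from this store makes the muscle contract. Relaxation follows when the calcium pump SERCA2 returns calcium to the store and the sodium-calcium exchanger moves the rest out of the cell. Phospholamban restrains the pump, calsequestrin and other luminal proteins buffer the stored calcium, and the kinase CaMKII phosphorylates several of these proteins. In failing hearts of several species SERCA2 is commonly reported to be low.

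The libraries held 4922411 to 22010830 counts assigned to genes, and levels are given as CPM, the counts of a gene per 1000000 counts after TMM scaling, which corrects library totals for differences in composition. The 3 smallest libraries, DBA control 4 (4922411 counts), DBA control 3 (7581515) and C57 control 1 (8217335), are called shallow below. Deviations of genes from the mean of the library's own group were set against the GC content of the transcripts. The rank correlation over genes was -0.30 in DBA control 3, -0.46 in DBA control 4 and -0.33 in C57 control 1. In DBA controls 1 and 2 it was 0.44 and 0.49, and in C57 controls 2, 3 and 4 it was 0.014, 0.25 and 0.22. Ligated libraries lay between -0.21 and 0.15. Deviations within a group sum to 0, so opposite signs are partly built in and do not show which libraries are unusual. Calls of the 9 genes are also given without the 3 shallow libraries where they change. For the lists some of these counts are given, but not every count that changed. Heart muscle markers were abundant in every group, with a summed level of 10 markers between 75791 and 122194 CPM, and skeletal muscle markers were close to absent, at 0.59 to 2.04 CPM summed over the 2 of 5 markers in the table. A bulk measurement cannot tell fewer cells of a type from less RNA per cell. The edgeR p-values set differences between groups against the spread between libraries within the groups, and the permutation tests use only the groups compared. With 1 library per mouse, spread between mice cannot be told apart from spread between library preparations.

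The 9 genes together took 3.71% ± 0.26 (SD, n = 4) of all counts in DBA controls and 2.57% ± 0.0421 (SD, n = 4) in ligated DBA mice. In C57 mice they took 4.41% ± 0.0565 (SD, n = 4) in controls and 3.33% ± 0.454 (SD, n = 4) after ligation. Levels of different genes can be compared only per length. The deposited gene length was used, which need not be that of the transcript present in the heart. On that scale the pump and its brake led in every group. In C57 controls Atp2a2 stood at 4321 ± 121 CPM per kilobase and Pln at 3784 ± 302, and their ranges did not overlap (SD, n = 4). In DBA controls the order of the means was the other way round, with Pln at 3278 ± 590 and Atp2a2 at 3102 ± 239, but their ranges overlapped, as they did in both ligated groups. The luminal proteins Hrc and Casq2 followed, then Ryr2, then Jph2 and Trdn, then Slc8a1, with Camk2d lowest at 27.5 ± 1.42 to 35.1 ± 3.29 CPM per kilobase.

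In DBA mice 8 of the 9 genes fell after ligation, beside 13.8% of all tested genes that fell. The median log2 change of the 9 was -0.50 and that of all tested genes 0.03. The levels of 7 of the 9 did not overlap between ligated and control DBA mice, with the ligated mice lower, beside 12.4% of all tested genes. In C57 mice 3 of the 9 fell, beside 6.06% of all tested genes that fell, and the median log2 change of the 9 was -0.16 and that of all genes 0.02. The 4 genes whose C57 levels did not overlap, all lower after ligation, were Atp2a2, Pln, Hrc and Trdn, beside 12.7% of all tested genes. None of the 9 rose in either strain by edgeR or by DESeq2 (edgeR called 11.1% and 7.24% of all genes higher), and none had an unadjusted p under 0.05 in that direction. Without the 3 shallow libraries, 4 of the 9 fell in DBA mice (3.78% of all genes) and 4 in C57 mice (9.53%).

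**Figure D1:**
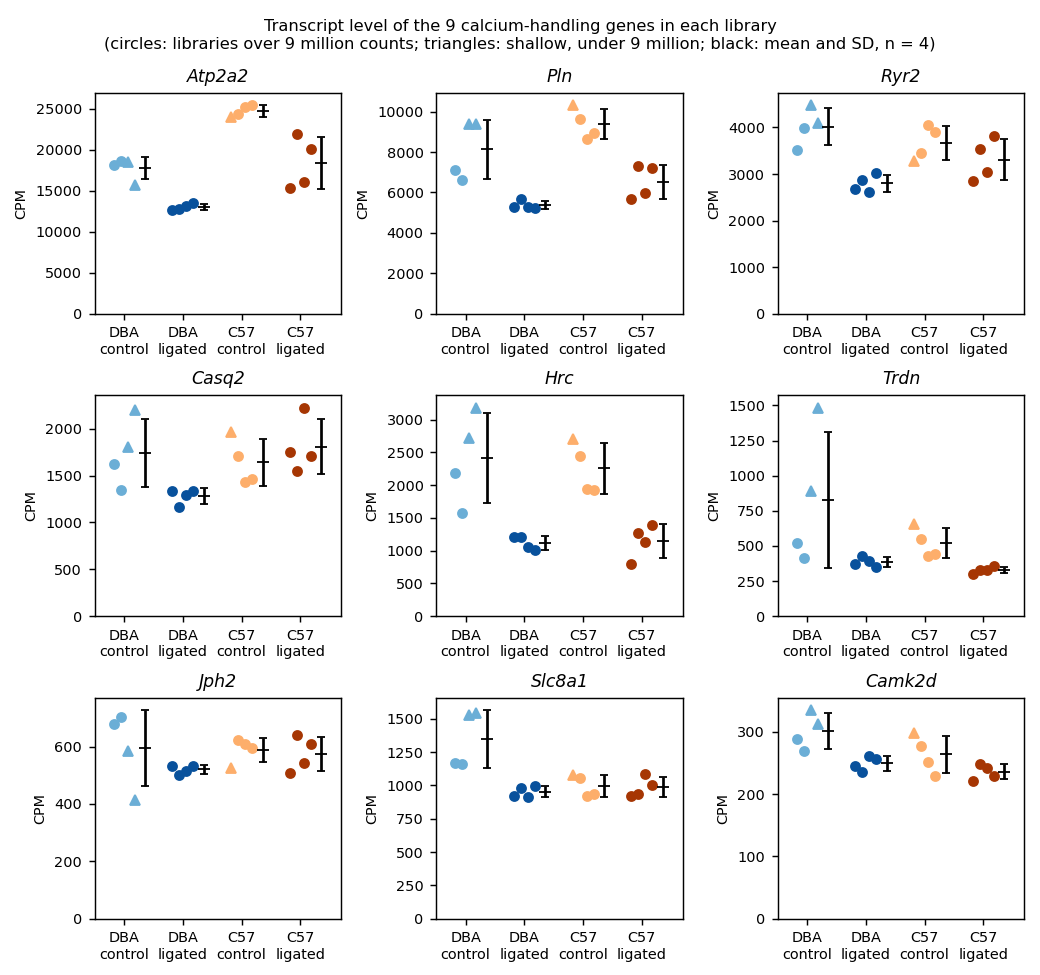
Level of each of the 9 genes in each of the 16 libraries, in CPM on a linear axis from 0, with DBA mice in blue and C57 mice in orange; circles are the deeper and triangles the shallow libraries, and black marks are means with SD (n = 4). Atp2a2 is at 12664 to 13531 CPM in ligated DBA mice and at 23988 to 25454 CPM in C57 controls, and in the DBA controls the triangles lie above the circles for Trdn and below them for Jph2.

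Markers of other cell types moved as well. The summed level of 10 heart muscle cell markers was 109009 ± 12125 CPM in DBA controls and 77128 ± 1514 in ligated DBA mice, and 115223 ± 5256 and 90384 ± 10410 in the C57 groups (SD, n = 4). Of those 10 markers 5 fell and 1 rose in DBA mice, with a median log2 change of -0.38, and 4 fell and 1 rose in C57 mice, with a median of -0.21. The 7 fibroblast markers summed to 3195 ± 457 CPM in DBA controls and 5049 ± 573 after ligation, and to 1790 ± 140 and 3549 ± 1070 in C57 mice; 4 and 5 of the 7 rose. The 5 macrophage markers summed to 172 ± 19.8 and 236 ± 10.9 CPM in DBA mice and to 140 ± 4.05 and 210 ± 35.2 in C57 mice, and 4 of the 5 rose in each strain. Markers of atrial muscle summed to 268 ± 66.6 and 123 ± 11.8 CPM in DBA mice and to 307 ± 68.9 and 181 ± 27.1 in C57 mice, over the 7 of 8 in the table. Of 5 endothelial markers 3 rose in DBA mice and 1 in C57 mice, of 5 markers of smooth muscle and pericytes 1 rose in each strain, and the erythroid marker Alas2 was not called. Over all tested genes 13.8% fell and 11.1% rose in DBA mice, and 6.06% fell and 7.24% rose in C57 mice. The DBA calls were fewer without the 3 shallow libraries: 2 of the 10 heart muscle markers and 2 of the 7 atrial markers fell (5 and 4 with them), 1 endothelial marker rose, and 0 fibroblast and 0 macrophage markers were called by edgeR. In C57 mice 5 fibroblast, 5 macrophage, 2 endothelial and 2 smooth muscle markers then rose. Of 13711 genes tested without those libraries, 518 fell and 432 rose in DBA mice, and 1522 rose in C57 mice. The part of these marker shifts in the changes of the 9 genes was not tested.

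Atp2a2, which encodes the pump SERCA2 (mm10 chromosome 5, 122453513 to 122502225, minus strand), fell after ligation in both strains and was lower in DBA than in C57 mice with and without ligation. In DBA mice its level was 18167, 18649, 18487 and 15729 CPM in controls and 12664, 12831, 13173 and 13531 CPM after ligation. In C57 mice it was 23988, 24326, 25186 and 25454 CPM in controls and 15319, 21989, 16120 and 20124 CPM after ligation. The 4 C57 controls were the highest of the 16 libraries, the 4 ligated DBA mice were the lowest, and no 2 groups that differ in 1 factor overlapped. Atp2a2 fell by 26.5% in DBA mice (log2 change -0.44 ± 0.11 SE, edgeR adjusted p = 0.0101) and fell by 25.7% in C57 mice (-0.43 ± 0.11, adjusted p = 0.0162). The C57 call was lost without C57 ligated mouse 1 (adjusted p = 0.067) or 3 (0.0637), the lowest 2 of that group. The log2 difference between DBA and C57 mice was -0.48 ± 0.11 in controls (adjusted p = 0.00359) and -0.49 ± 0.11 after ligation (adjusted p = 0.00286), and it was called under all 24 alternative settings in controls and all 23 in ligated mice. DBA reads carry strain variants that can lower their alignment to a reference derived from C57 mice; the part of that in this difference was not tested. The difference between the strains' ligation responses was -0.02 with a 95% interval of -0.34 to 0.30.

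Pln, the gene of the pump's inhibitor phospholamban (chromosome 10, 53337686 to 53345999, plus strand), also fell in both strains. Its level was 7129, 6620, 9404 and 9364 CPM in DBA controls and 5293, 5665, 5293 and 5213 CPM in ligated DBA mice. In C57 mice Pln was at 10316, 9636, 8622 and 8967 CPM in controls and 5653, 7321, 5960 and 7187 CPM after ligation. Ligated and control mice did not overlap in either strain, and within the DBA controls the shallow libraries were the higher pair. The change was -0.60 ± 0.12 in DBA mice (edgeR adjusted p = 0.00522) and -0.52 ± 0.12 in C57 mice (adjusted p = 0.0111). Without the 3 shallow libraries the DBA change was -0.36 (adjusted p = 0.052). Pln was not called between the strains, at -0.21 ± 0.12 in controls (adjusted p = 0.233) and -0.28 ± 0.12 after ligation (0.118), but without those 3 libraries it was lower in DBA mice in both comparisons, at -0.40 (adjusted p = 0.0206) in controls and with an adjusted p of 0.0212 after ligation. With the GC offset it was also called lower in both, at -0.32 (adjusted p = 0.0126) and -0.29 (0.0212), and its ligation change in DBA mice was then -0.32 (adjusted p = 0.016).

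The counts of Pln per count of Atp2a2 in the same library, a ratio that no library scaling can move, separated 1 pair of groups. The ratio was 0.392, 0.355, 0.509 and 0.595 in DBA controls and 0.418, 0.442, 0.402 and 0.385 in ligated DBA mice. In C57 mice it was 0.43, 0.396, 0.342 and 0.352 in controls and 0.369, 0.333, 0.37 and 0.357 after ligation. Of the 4 comparisons, only that between the ligated mice of the 2 strains had no overlap, with the DBA mice higher by 0.20 on the log2 scale. The exact two-sided permutation test over 70 arrangements gave p = 0.0286, the smallest it can give, and 0.114 after adjustment over the 4 comparisons. Ligation moved the ratio by -0.14 in DBA mice (exact p = 0.486) and by a log2 difference of -0.09 in C57 mice (exact p = 0.4), and both groups overlapped in each case.

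Slc8a1, the sodium-calcium exchanger that extrudes calcium from the cell (chromosome 17, 81373105 to 81738387, minus strand), was higher in DBA than in C57 controls and fell after ligation in DBA mice. In DBA mice its level was 1167, 1158, 1530 and 1543 CPM in controls and 924, 979, 912 and 994 CPM after ligation. In C57 mice it was 1078, 1059, 922 and 935 CPM in controls and 918, 939, 1085 and 1003 CPM after ligation. All 4 DBA controls were higher than each of the other 12 libraries, while the 2 C57 groups overlapped. The log2 change was -0.50 ± 0.10 in DBA mice (edgeR adjusted p = 0.00558) and -0.02 ± 0.10 in C57 mice (adjusted p = 0.926, 95% interval -0.24 to 0.20). The strain difference in controls was 0.43 ± 0.10 (adjusted p = 0.00603), and after ligation it was -0.05 ± 0.10 (adjusted p = 0.802). Without the 3 shallow libraries neither call held, at -0.29 for DBA ligation (adjusted p = 0.053) and 0.26 for the controls (adjusted p = 0.0606).

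Relative to the pump transcript, the exchanger transcript stood higher in DBA than in C57 mice, but neither difference had an adjusted p under 0.05. After ligation Slc8a1 itself was not called between the strains, whereas Atp2a2 was lower in DBA mice. The counts of Slc8a1 per count of Atp2a2 were 0.0643, 0.0621, 0.0828 and 0.0981 in DBA controls and 0.045, 0.0435, 0.0366 and 0.0367 in C57 controls. After ligation they were 0.073, 0.0763, 0.0692 and 0.0734 in DBA mice and 0.0599, 0.0427, 0.0673 and 0.0498 in C57 mice. The strains did not overlap in either state, by 1.87-fold in controls and 1.35-fold after ligation, each with an exact two-sided permutation p of 0.0286, the smallest possible, and an adjusted p of 0.0571 over 4 comparisons. With ligation the ratio moved by 0.43 on the log2 scale in C57 mice (exact p = 0.0857) and by -0.05 in DBA mice (exact p = 0.771). Among the deeper libraries the control difference was 0.70, with groups of 2 and 3 mice that allow no p under 0.1.

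**Figure D2:**
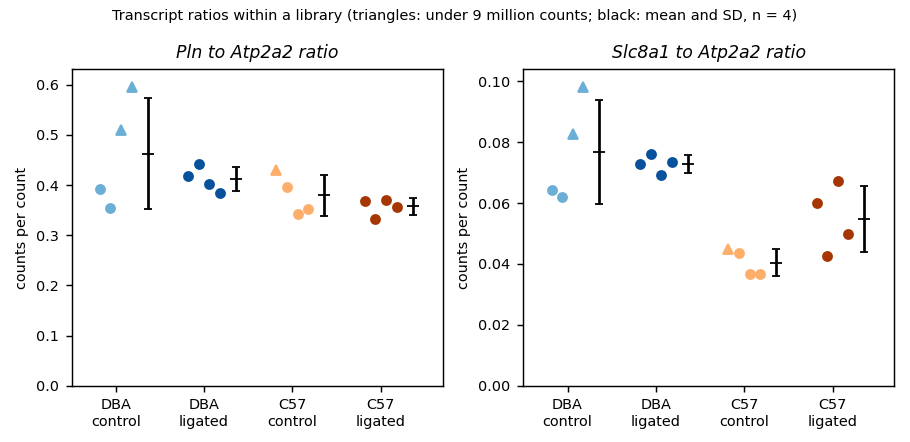
Ratio of Pln to Atp2a2 counts (left) and of Slc8a1 to Atp2a2 counts (right) in each library, in counts per count on linear axes from 0, with circles for the deeper and triangles for the shallow libraries and black marks for the mean and SD (n = 4). The Slc8a1 ratio is 0.0768 ± 0.017 in DBA controls and 0.0405 ± 0.00441 in C57 controls, and the triangles are the highest points of their groups in both panels.

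Hrc, a histidine-rich protein that binds calcium in the lumen of the store (chromosome 7, 45335269 to 45338972, plus strand), fell in both strains, to 1122 ± 105 CPM in DBA mice and 1148 ± 261 CPM in C57 mice (SD, n = 4). Its level was 2187, 1580, 2717 and 3180 CPM in DBA controls and 1215, 1207, 1058 and 1008 CPM after ligation. The C57 mice had 2709, 2450, 1942 and 1921 CPM in controls and 790, 1270, 1136 and 1395 CPM after ligation. Every ligated mouse was below every control of either strain. The change was -1.11 ± 0.19 in DBA mice (edgeR adjusted p = 0.00309) and -0.97 ± 0.19 in C57 mice (adjusted p = 0.00506), called under all 23 and all 24 alternative settings, with a range of -1.29 to -0.75 and of -1.08 to -0.83. The strains differed by 0.10 ± 0.19 in controls (adjusted p = 0.75) and by -0.03 ± 0.19 after ligation (adjusted p = 0.934).

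Casq2, cardiac calsequestrin, the main calcium buffer of the store (chromosome 3, 102086455 to 102146512, plus strand), fell in DBA mice only by a margin that other settings did not keep. Its level was 1620, 1342, 1801 and 2201 CPM in DBA controls and 1334, 1160, 1295 and 1333 CPM after ligation. The C57 mice had 1959, 1705, 1432 and 1461 CPM in controls and 1752, 1550, 2223 and 1710 CPM after ligation. The DBA groups were separated by a gap of only a few CPM between control 2 and ligated mouse 1, and the C57 groups overlapped. The DBA change was -0.44 ± 0.14 (edgeR adjusted p = 0.0334), called under 14 of 23 alternatives, and it was lost on leaving out DBA control 3 (0.0879) or 4 (0.107) or any 1 of the 4 ligated DBA mice (0.0615 to 0.0873), and without the 3 shallow libraries (0.29). The C57 change was 0.14 ± 0.14 (adjusted p = 0.524). In ligated mice Casq2 was lower in DBA than in C57, with a log2 difference of -0.50 ± 0.14 (adjusted p = 0.0199), without overlap, a call that was lost without ligated DBA mouse S40 (0.0636) or C57 ligated mouse 3 (0.0795). Per kilobase Hrc was above Casq2 in controls, at 928 ± 160 against 652 ± 97.8 in C57 mice, and below it after ligation, at 472 ± 107 against 720 ± 115, without overlap in either state (SD, n = 4). In DBA mice the means had the same order, 994 ± 284 against 693 ± 143 in controls and 462 ± 43.2 against 509 ± 32.8 after ligation, but the ranges overlapped in both.

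The upstream sequences of Pln, Hrc and Casq2 are shown because the first 2 fell together in both strains while Casq2 did not. They end at the base before the RefSeq start of each gene, which is the deposited start for Pln and Hrc and lies upstream of the deposited start for Casq2, from RefSeq on GRCm38.p6, all on the plus strand and written 5′ to 3′. In Pln (chr10:53337436-53337685) and Hrc (chr7:45335019-45335268) capitals mark GATAA and CCAAT on either strand, the core letters of GATA and NF-Y type motifs, and in Casq2 (chr3:102086165-102086414) they mark a MEF2-type motif.
Pln: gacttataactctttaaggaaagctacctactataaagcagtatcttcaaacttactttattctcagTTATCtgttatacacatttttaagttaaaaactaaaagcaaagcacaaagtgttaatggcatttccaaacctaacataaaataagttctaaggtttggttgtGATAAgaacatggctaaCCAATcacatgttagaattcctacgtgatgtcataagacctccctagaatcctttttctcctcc
Hrc: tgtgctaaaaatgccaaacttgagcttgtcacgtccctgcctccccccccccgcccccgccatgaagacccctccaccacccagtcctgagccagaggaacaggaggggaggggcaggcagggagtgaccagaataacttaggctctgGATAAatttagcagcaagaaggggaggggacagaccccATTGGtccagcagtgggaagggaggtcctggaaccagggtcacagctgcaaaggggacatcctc
Casq2: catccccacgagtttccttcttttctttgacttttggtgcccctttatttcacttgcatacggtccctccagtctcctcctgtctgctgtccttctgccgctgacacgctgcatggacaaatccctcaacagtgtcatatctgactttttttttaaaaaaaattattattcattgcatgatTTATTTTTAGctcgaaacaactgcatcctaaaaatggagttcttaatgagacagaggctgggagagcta
The first printed base of the CCAAT match lies 64 bases before the start in both Pln and Hrc. The 2 matches are on opposite strands, printed as CCAAT in Pln and as ATTGG in Hrc. A GATAA match begins 81 bases before the start of Pln and 102 before that of Hrc. Of the 9 genes 7 had an entry in the promoter table, all but Atp2a2 and Trdn. GATAA was in 3 of the 7 (Pln, Hrc and Slc8a1) and in 22.6% of 32851 promoters. CCAAT was in 3 (Pln, Hrc and Jph2) and in 33.8% of promoters, the MEF2-type motif in Casq2 alone and in 2.92%, and CANNTG, the E-box, in 6 and in 66.2%. The counts out of 7 are of genes with a match in any entry, whereas the percentages are of promoter entries, so they are not in the same unit. A match is a string of letters and shows no binding.

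Ryr2, the calcium release channel of the store (chromosome 13, 11553103 to 12106945, minus strand), fell in DBA mice. Its level was 3526, 3981, 4477 and 4098 CPM in DBA controls and 2686, 2868, 2624 and 3018 CPM after ligation, without overlap. In C57 mice the controls lay between 3274 and 4053 CPM and the ligated mice between 2857 and 3816 CPM, and the groups overlapped. The change was -0.52 ± 0.11 in DBA mice (edgeR adjusted p = 0.00543), called under all 23 alternative settings, and -0.15 ± 0.11 in C57 mice (adjusted p = 0.364, 95% interval -0.38 to 0.08).

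Trdn encodes triadin, which ties calsequestrin to the release channel (chromosome 10, 33083483 to 33476709, plus strand), and it varied more between DBA controls than any other of the 9 genes, with an SD of 58.4% of the mean. Its level in them was 523, 411, 892 and 1484 CPM, and in ligated DBA mice it was 373, 428, 395 and 349 CPM. In C57 mice it was 657, 553, 426 and 444 CPM in controls and 300, 327, 331 and 358 CPM after ligation. DBA control 2 lay below the highest ligated DBA mouse, so the DBA groups overlapped, while the C57 groups did not. In edgeR the change was -1.10 ± 0.27 in DBA mice (adjusted p = 0.0112) and -0.66 ± 0.27 in C57 mice (adjusted p = 0.111). Without the 3 shallow libraries these calls changed places, with a DBA change of -0.28 (adjusted p = 0.136) and a C57 change of -0.53 (adjusted p = 0.00285). The C57 change was also called when DBA control 2 (0.0497) or 4 (0.0212) was left out of the joint fit, or when only the C57 libraries were fitted (0.0056).

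Jph2, junctophilin 2, which holds the store membrane close to the cell surface (chromosome 2, 163336242 to 163397993, minus strand), was the gene of the 9 not called in DBA mice. Its level was 680, 703, 585 and 413 CPM in DBA controls and 534, 501, 515 and 534 CPM after ligation, so the control values lay on both sides of the ligated ones. The change was -0.19 ± 0.13 (edgeR adjusted p = 0.27), but it was -0.33 without DBA control 4 (adjusted p = 0.0241) and -0.41 without the 3 shallow libraries (adjusted p = 0.0165). In C57 mice the controls lay between 526 and 623 CPM and the ligated mice between 509 and 640 CPM, with a change of -0.03 ± 0.13 (adjusted p = 0.884). With an offset for GC content Jph2 was called lower in both strains, at -0.61 in DBA mice (adjusted p = 0.00112) and -0.28 in C57 mice (adjusted p = 0.0353).

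Camk2d, the main cardiac isoform of the kinase CaMKII (chromosome 3, 126596951 to 126846326, plus strand), showed the smallest called change. Its level was 289, 270, 335 and 312 CPM in DBA controls and 246, 235, 261 and 256 CPM after ligation, without overlap. In C57 mice the controls lay between 230 and 298 CPM and the ligated mice between 222 and 249 CPM, and they overlapped. The change was -0.27 ± 0.09 in DBA mice (edgeR adjusted p = 0.037) and -0.16 ± 0.09 in C57 mice (adjusted p = 0.226). The DBA call was kept under 13 of 23 alternatives and was lost without DBA control 3 (0.134) or 4 (0.0689) or any 1 of the 4 ligated DBA mice (0.0623 to 0.0962), and without the 3 shallow libraries (0.218).

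**Figure D3:**
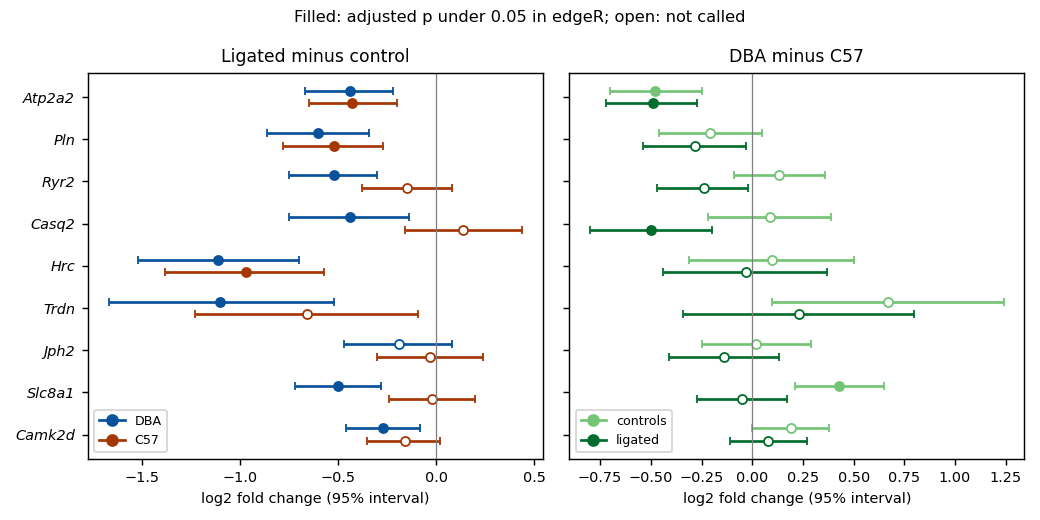
Log2 fold change of the 9 genes with 95% intervals from edgeR, for ligated minus control mice of each strain (left) and for DBA minus C57 mice in each state (right); filled points have an adjusted p under 0.05. In the left panel 8 DBA points and 3 C57 points are filled, all below 0, and Atp2a2 is the gene with filled points in all 4 comparisons.

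The spread within the untreated groups was not the same for every gene. In DBA controls the 2 shallow libraries were above the 2 deeper ones by 1.35 on the log2 scale for Trdn, by 0.65 for Hrc, 0.45 for Pln, 0.43 for Casq2 and 0.40 for Slc8a1. For Jph2 the shallow libraries were below the deeper ones, at -0.47, and for Atp2a2 the value was -0.11 and the ranges overlapped. C57 control 1 differed from the other 3 C57 controls in the same direction for 8 of the 9 genes, by 0.47 for Trdn and -0.21 for Jph2, and in the opposite direction for Ryr2 (-0.22 against 0.19). Trdn had the lowest GC content of the 9 transcripts, 36.8%, and Jph2 the highest, 61.8%, while Hrc at 53.3% did not follow that order. The part of RNA quality or library preparation in this was not tested.

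**Figure D4:**
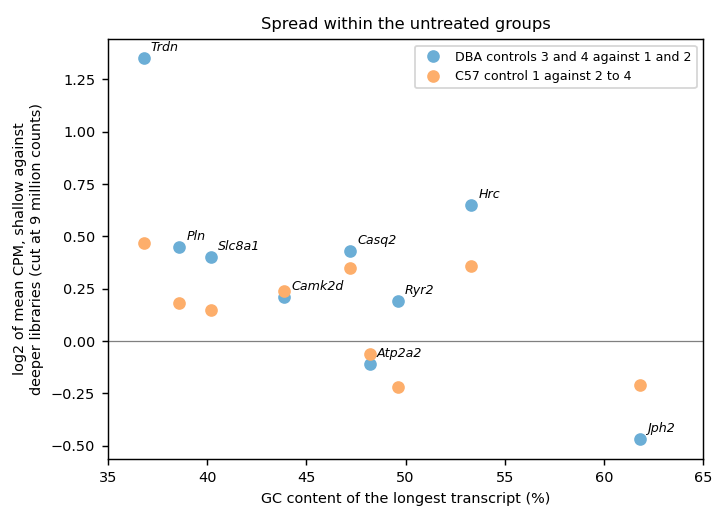
Log2 ratio of the mean CPM of the shallow libraries to that of the deeper libraries within each control group (vertical axis) against the GC content of the longest transcript in percent (horizontal axis), 1 point per gene and strain. Trdn, at 36.8% GC, is at 1.35 and Jph2, at 61.8%, is at -0.47 in DBA controls, while Hrc, at 53.3%, is at 0.65.

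Whether the strains responded differently to ligation was tested as an interaction. No member was called by edgeR, and none of the 13504 genes was (0%), although 782 genes had an unadjusted p under 0.05, among them 3 of the 9. DESeq2 called 16 genes, none of the 9. The 3 were Slc8a1, with a difference in log2 change (DBA minus C57) of -0.48 ± 0.15 (unadjusted p = 0.00429, adjusted p = 0.712), Casq2 at -0.59 ± 0.20 (0.0101, adjusted 0.766) and Ryr2 at -0.37 ± 0.15 (0.0248, adjusted 0.832). The call of these 3 genes in DBA mice and not in C57 mice is thus no shown difference between the strains. For the other 6 the difference lay between -0.44 and -0.02.

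Between the control groups 1 of the 9 genes was higher in DBA mice (Slc8a1, beside 12.6% of all tested genes) and 1 was lower (Atp2a2, beside 9.92%). Between the ligated groups 0 were higher in the main edgeR fit or in DESeq2, beside 10.6% of all tested genes called higher by edgeR. In the main fit 0 had an unadjusted p under 0.05 in that direction, and 2 were lower (Atp2a2 and Casq2, beside 8.81%). With only the ligated groups fitted, Trdn was called higher in DBA mice, at 0.23 (edgeR adjusted p = 0.0383). Without the 3 shallow libraries, Atp2a2 and Pln were lower in controls (8.49% of all genes), and Atp2a2, Pln and Casq2 were lower after ligation (15.5%). Markers also differed between the strains. In DBA mice 6 of 7 fibroblast markers were higher in controls (median log2 difference 0.85) and 5 of 7 after ligation (0.50), and 2 and 3 of 10 heart muscle markers were lower (medians -0.23 and -0.27). Without the 3 shallow libraries 5 and 4 fibroblast markers were higher, beside 1493 and 2220 of 13711 genes. The heart muscle markers lower in DBA mice were then 2 in controls and 6 after ligation. These are markers of cell types and not members of the 9. Their part in the strain differences of the 9 genes was not tested. Trdn was at 0.67 ± 0.27 in DBA against C57 controls (edgeR adjusted p = 0.0876), and it was called without DBA control 1 (0.034) or 2 (0.0101) but was at -0.02 without the shallow libraries. The authors' deposited table gave false discovery rates for Atp2a2 of 0.00154 for DBA ligation, 0.00326 for C57 ligation, 0.000287 between controls and 0.00017 between ligated mice.

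The proteins around the release channel, 17 tested genes of the junction between store and surface membrane, changed in part. In DBA mice 5 fell and 1 rose, and in C57 mice 3 fell and 2 rose, with median log2 changes of -0.08 and -0.16. Over all tested genes 13.8% fell and 11.1% rose in DBA mice, and 6.06% fell and 7.24% rose in C57 mice. Leaving out the 3 shallow libraries, 3 of the 17 were called in DBA mice, all lower, and in C57 mice 3 fell and 3 rose. Of 13711 genes then tested, 518 fell in DBA mice, and 1307 fell and 1522 rose in C57 mice. Jph1, the paralog of Jph2 best known from skeletal muscle, fell by 0.90 ± 0.15 on the log2 scale in DBA mice (63.6 to 33.7 CPM, edgeR adjusted p = 0.00257) and fell by 0.76 ± 0.15 in C57 mice (52.2 to 30.7 CPM, adjusted p = 0.00443). Asph, whose locus also encodes junctin, a partner of triadin, fell by 0.55 ± 0.11 in DBA mice (adjusted p = 0.00451) and fell by 0.36 ± 0.11 in C57 mice (adjusted p = 0.0354). The L-type channel subunits Cacnb2 (-0.66 ± 0.14, adjusted p = 0.00636) and Cacna2d1 (-0.41 ± 0.10, adjusted p = 0.0111) fell in DBA mice, and neither was called without the 3 shallow libraries (0.065 and 0.134). Bin1, which shapes the transverse tubules, rose in DBA mice by 0.70 ± 0.18 (adjusted p = 0.0116), but not without those libraries (0.0687). In C57 mice Cav3, muscle caveolin, rose from 32 to 47.2 CPM (0.55 ± 0.16, adjusted p = 0.0351), and Sypl2, mitsugumin 29 of the triad junction, rose from 0.575 to 2.32 CPM (1.91 ± 0.34, adjusted p = 0.00298).

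The same list held the widest strain difference among the store proteins. Casq1, the calsequestrin of skeletal muscle, was at 80.3 ± 5.96 CPM in DBA and 17.4 ± 2.5 in C57 controls (log2 difference 2.22 ± 0.19, edgeR adjusted p = 1.7e-07). After ligation it was at 82.6 ± 4.82 against 23.9 ± 9.14 CPM (1.78 ± 0.18, adjusted p = 1.07e-06). The skeletal muscle markers Tnnt3 and Mylpf together did not exceed 2.04 CPM in any library. In controls 6 of the 17 were higher and 1 lower in DBA mice, among them Asph (0.68 ± 0.11, adjusted p = 0.000197), the L-type channel pore gene Cacna1c (0.55 ± 0.12, 0.00294) and, lower, Cacna2d1 (-0.40 ± 0.10, 0.00914). After ligation 4 were higher and 1 lower, or 7 and 2 without the 3 shallow libraries, with Cacna2d1 at -0.64 ± 0.10 (adjusted p = 0.000184). Over all tested genes 12.6% were higher and 9.92% lower in controls, and 10.6% and 8.81% after ligation. Without the 3 shallow libraries 2220 of 13711 genes were higher and 2122 lower after ligation.

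Of 8 tested SERCA paralogs and regulators, 4 fell and 1 rose in DBA mice and 1 fell in C57 mice. Among all tested genes 13.8% fell and 11.1% rose in DBA mice, and 6.06% fell in C57 mice. In DBA mice S100a1, a calcium sensor that stimulates SERCA2 and Ryr2, fell from 872 ± 311 to 441 ± 62.9 CPM (-0.98 ± 0.22, edgeR adjusted p = 0.00812). Hspb6, a small heat shock protein (Hsp20) abundant in heart muscle, was at 2039 ± 912 and 931 ± 101 CPM, with overlapping groups (-1.13 ± 0.28, adjusted p = 0.0114). The paralog Atp2a3 rose in DBA mice by 0.34 ± 0.11 (adjusted p = 0.0281). Without the 3 shallow libraries none of the 8 was called in DBA mice, with adjusted p of 0.0827 for S100a1, 0.188 for Hspb6 and 0.19 for Atp2a3. In C57 mice 1 of the 8 then rose and 2 fell, beside 1522 and 1307 of 13711 genes. In C57 mice Atp2a1, the skeletal SERCA1, fell from 1.24 to 0.507 CPM (-1.27 ± 0.33, adjusted p = 0.0196). Atp2a3, SERCA3 of non-muscle cells, was higher in DBA mice, at 30.5 ± 4.39 against 17.3 ± 1.64 CPM in controls (0.84 ± 0.11, adjusted p = 2.98e-05) and 39 ± 1.94 against 20.2 ± 2.09 CPM after ligation (0.95 ± 0.11, adjusted p = 3.2e-06), the opposite direction to Atp2a2. Sri, which encodes the calcium-binding protein sorcin, was higher in DBA controls by 0.49 ± 0.13 (adjusted p = 0.0126).

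Among 24 genes of kinases, phosphatases, phosphodiesterases and calmodulin, 11 fell and 1 rose in DBA mice and 6 fell and 1 rose in C57 mice. The shares of all tested genes were 13.8% lower and 11.1% higher in DBA mice, and 6.06% lower and 7.24% higher in C57 mice. From the deeper libraries alone 7 were called in DBA mice, all lower, beside 3.78% of all genes. In C57 mice 7 then fell, beside 9.53% of all genes, and 1 rose. Pde3a, a cAMP phosphodiesterase that acts near SERCA2, fell from 156 ± 23.6 to 82.3 ± 5.57 CPM in DBA mice (-0.92 ± 0.14, edgeR adjusted p = 0.00226) and from 165 ± 25.6 to 103 ± 19.2 CPM in C57 mice (-0.68 ± 0.13, adjusted p = 0.00507). Ppp1r3a, a targeting subunit of protein phosphatase 1, fell by 0.74 ± 0.11 (adjusted p = 0.00226) and fell by 0.47 ± 0.11 (adjusted p = 0.0103). In DBA mice the kinase subunit genes Prkar2a (-0.54 ± 0.10, adjusted p = 0.00437) and Camk2a (-0.71 ± 0.14, 0.0045) fell, and Rcan1, a calcineurin regulator, rose by 0.60 ± 0.15 (0.0117), which was not called without the 3 shallow libraries (0.136). In C57 mice Ppp1cb, a catalytic subunit of phosphatase 1, fell by 0.35 ± 0.09 (adjusted p = 0.0159) and Prkar1a rose by 0.38 ± 0.09 (0.0103). Rcan1 was higher in DBA mice in both states, at 153 ± 28.1 against 93.4 ± 13.6 CPM in controls (0.72 ± 0.15, adjusted p = 0.00257) and 233 ± 33.9 against 115 ± 22 CPM after ligation (1.02 ± 0.15, adjusted p = 9.96e-05). Pde4d was lower, at -0.36 ± 0.10 (adjusted p = 0.0129) and -0.50 ± 0.10 (0.00109).

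The last list covered calcium transport outside the pump and channel of the store. Of its 20 tested genes of IP3 receptors, store-operated entry, surface pumps and mitochondria, 2 rose and 1 fell in DBA mice, and 4 rose in C57 mice. Among all tested genes 11.1% rose and 13.8% fell in DBA mice, and 7.24% rose in C57 mice. The DBA counts of this list were thus not above the shares of all genes. In DBA mice the store-operated channel Orai1 rose by 0.67 ± 0.17 (edgeR adjusted p = 0.012), its sensor Stim1 by 0.33 ± 0.12 (0.0457), and the surface pump Atp2b1 fell by 0.30 ± 0.07 (0.0114), none of them called without the 3 shallow libraries (0.0659, 0.188 and 0.0979). In C57 mice the IP3 receptor Itpr2 (0.42 ± 0.12, adjusted p = 0.0271), the exchanger paralog Slc8a2 (0.71 ± 0.21, 0.0338) and the surface pump Atp2b4 (0.31 ± 0.09, 0.0246) rose. Atp2b2, another surface calcium pump, was at 10.6 ± 2.13 CPM in DBA and 0.95 ± 0.38 in C57 controls (3.48 ± 0.23, adjusted p = 8.46e-09), and at 12.3 ± 1.94 against 0.835 ± 0.0825 CPM after ligation (3.86 ± 0.21, adjusted p = 4.14e-10). Between controls 5 of the 20 were higher and 1 lower in DBA mice, and after ligation 5 were higher, beside 12.6% higher and 9.92% lower among all genes in controls and 10.6% higher after ligation. When the 3 shallow libraries were left out, 5 were higher in controls, and after ligation 6 were higher and 2 lower. Of 13711 genes tested in that setting, 1493 were higher in controls, and 2220 were higher and 2122 lower after ligation.

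Likeness of pattern was measured as the root mean square difference in log2 CPM over the 16 libraries, each gene centred on its own mean, among 12672 other genes that averaged 1 CPM or more. Atp2a2 was most like Acaa2, a mitochondrial thiolase of fatty acid oxidation (0.101), and Rapgef4, the cAMP sensor Epac2 (0.102), against a median of 0.447 over all genes compared. Pln was most like Nqo2 (0.0864) and Arfgef1 (0.0888). Hrc was most like Nampt (0.131) and Kiz (0.148), and Trdn most like the translation factor gene Eif5b (0.118) and the ribosomal protein gene Rpl14 (0.12). The first gene was Wnk1 for Ryr2 (0.0944), Alg14 for Casq2 (0.118), Tjp1 for Slc8a1 (0.081) and Dcun1d5 for Camk2d (0.066). Within the 9 genes the nearest pair was Slc8a1 and Camk2d (0.133), Atp2a2 and Pln stood 0.213 apart, and Hrc and Trdn 0.313. The genes compared share the same libraries, so depth and GC content enter these distances.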

How the data were processed

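Polyadenylated RNA was sequenced from 16 mouse hearts, in 4 groups of 4. Per the submitters' processing notes the reads were handled with STAR 2.5.2b, featureCounts of Subread 1.5.1 and edgeR on mm10; the strand setting and the gene annotation are in no source used here. The authors deposited whole-number counts per gene, with log2 fold changes and p-values of their own comparisons, and no gene total was under 45. The deposited gene lengths were used for levels per kilobase, and 16 per-sample columns of normalized values were not used. Column names of 3 ligated DBA libraries (S40, S41 and S42) show the group but not which mouse. The 9 genes and the pathway and marker lists were chosen with earlier results of these data known. Named pathway genes are those with the smallest p, at most 4 per list and comparison plus the first of the other direction. Some genes that these rules name are not reported here.

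Counts were fitted with edgeR 4.0.16 (R 4.3.3, limma 3.58.1), robust quasi-likelihood, TMM, over 13504 genes, with 4 group means and all 16 libraries, two-sided, Benjamini-Hochberg within each comparison, called at an adjusted p under 0.05. Ratios were tested by exact permutation. Alternatives were DESeq2 1.42.0, relative log expression or library totals as scaling, no filter, only the compared groups, a replicate block, leaving out each library and, chosen after seeing the data, leaving out the 3 shallow libraries, each with fewer than 9000000 counts, and a GC offset for the 96.4% of genes with a GC content. Exons of overlapping genes (Cep85l, D830005E20Rik and Mir684-1) shared 0 bases with those of Pln and Trdn. Counting error is small for the 9 genes, whose lowest count was 1440, for Camk2d in DBA control 4. It is larger for genes with few counts, such as Sypl2 at 0.575 CPM in C57 controls and Atp2a1 at 0.507 CPM in ligated C57 mice.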

Additional observations from a re-analysis of the deposited data

Results flagged for a closer look

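Of 44 sets of 4 libraries examined, each gene and ratio in each group, 1 held a library far from the other 3 by Dixon's criterion, which flags about 1 in 20 by chance. It was Atp2a2 in DBA control 4, at 15729 CPM beside 18167, 18649 and 18487 CPM in the other DBA controls. That library held 4922411 counts, the fewest of the 16. The ligation change of Atp2a2 in DBA mice and its strain difference in controls were called with and without it.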

How the results depend on the processing

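Over the 9 genes in 5 comparisons, 1044 values under alternatives were compared with the reported ones: 958 kept direction and call, 32 lost the call, 17 gained one and 37 changed sign, the last all for genes not called. The cause of these changes was not tested unless the alternative holds fewer samples or genes. In DBA mice the calls for Pln, Slc8a1, Casq2, Camk2d and Trdn were lost without the 3 shallow libraries, and Jph2 was called only without them, without DBA control 4 or with the GC offset. Among the controls the shallow libraries had the fewest counts and the only negative correlations with GC content, and depth and GC content cannot be told apart here.

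The number of the 9 genes called for DBA ligation was 5 with only the compared groups and 4 without the shallow libraries, and 6 to 8 on leaving out 1 library. For C57 ligation it was 2 to 4 on leaving out 1 library. With only the compared groups it was 1 between controls and 4 between ligated mice, where Atp2a2, Pln and Casq2 were lower and Trdn higher in DBA mice. On leaving out 1 library it was 1 to 2 between ligated mice. Pathway genes called numbered 10 for DBA ligation and 28 between ligated mice without the shallow libraries, 10 between controls and 26 between ligated mice with only the compared groups, and 5 to 23 for C57 ligation on leaving out 1 library.

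All genes called moved from 3360 to 1648 for DBA ligation with only the compared groups, to 950 without the shallow libraries and to between 1318 and 5091 on leaving out 1 library. For C57 ligation they moved from 1796 to 2829 without those libraries and to between 618 and 2854 on leaving out 1 library. Between controls 3035 became 1612 with only the compared groups, and between ligated mice 2624 became 4162, and 4342 without the shallow libraries. The interaction had 0 genes by edgeR, 16 by DESeq2 and 1 without those libraries. With library totals as the only scaling, the median of all genes shifted by 0.161 for DBA ligation, 0.112 for C57 ligation and 0.107 between ligated mice, and the share of higher calls moved from 44.7% to 79.1%, from 54.5% to 79.8%, from 54.6% to 74%, and between controls from 55.9% to 68.7%. Casq2 (adjusted p = 0.13) and Camk2d (0.319) then lost their DBA calls.

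The replicate numbers did not pair the libraries: same-numbered C57 libraries correlated at -0.068 to 0.01 and same-numbered controls of the 2 strains at -0.26 to -0.037. With the numbers as a block, 1 of the 9 genes and 2 pathway genes were called for C57 ligation (Hrc, edgeR adjusted p = 0.0473; Atp2a2 0.106, Pln 0.0835), and 1 and 9 between controls (Atp2a2 0.0345; Slc8a1 0.0585), with 347 and 1873 genes in all, and Jph2 between controls was at -0.01.

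The Pln to Atp2a2 ratio for DBA ligation was 0.14 on the log2 scale without the shallow libraries (exact p = 0.2), and between ligated mice it was 0.17 to 0.24 on leaving out 1 library. The Slc8a1 to Atp2a2 ratio without those libraries was 0.21 for DBA ligation (exact p = 0.0667, the smallest possible) and 0.70 between controls. On leaving out 1 library it was -0.14 to 0.08 for DBA ligation, 0.32 to 0.54 for C57 ligation and 0.32 to 0.54 between ligated mice.

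Sign changes with library totals were 0.08 for Jph2 and 0.10 for Slc8a1 in C57 ligation, 0.04 for Atp2a2 in the interaction, and 0.08 for Hrc and 0.06 for Slc8a1 between ligated mice. Without the shallow libraries they were 0.02 for Slc8a1 in C57 ligation, 0.12 for Pln, 0.13 for Hrc and 0.25 for Trdn in the interaction, and -0.02 for Ryr2, -0.05 for Casq2, -0.16 for Hrc and -0.02 for Trdn between controls. With the GC offset they were 0.14 for Slc8a1 in C57 ligation and 0.02 for Pln in the interaction. Leaving out 1 library gave -0.09 to 0.03 for Jph2 and -0.06 to 0.02 for Slc8a1 in C57 ligation, -0.05 to 0.19 for Casq2, -0.06 to 0.25 for Hrc and -0.08 to 0.16 for Jph2 between controls, -0.18 to 0.07 for Hrc between ligated mice, and in the interaction -0.09 to 0.08 for Atp2a2, -0.28 to 0.03 for Hrc, -0.16 to 0.00 for Pln and -0.65 to 0.00 for Trdn.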
